A study of Mus musculus with 16 samples.

Results

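Loss of dystrophin in muscle that keeps miR-133b was read by comparing 4 mdx libraries with 4 Control libraries, 8 of the 16 RNA sequencing libraries of the series, over all 831 genes of the deposited table. Both groups are tibialis anterior, a fast muscle of the lower leg, taken whole from mice at postnatal day 30. Control is labelled wild type and mdx is labelled mdx-/-, and neither label carries a change in miR-133b. The other 8 libraries, miR-133b-/- and mdx/miR-133b-/- (4 each), share the estimate of the spread and enter 1 test of a difference between responses. They vary more: the median SD per gene on the log2 scale was 0.427 in miR-133b-/- and 0.381 in mdx/miR-133b-/-. In Control it was 0.272 and in mdx 0.214. The labels give no sex, strain background or litter, nor whether each library is a mouse of its own, so the p-values reflect only how far these samples vary, and that variation may be technical. A value is given in scaled reads, the reads counted in a gene after the authors multiplied each library by 1 factor. A gene was called higher or lower where limma, fitted to log2(scaled reads + 1) over all 831 genes, gave a Benjamini-Hochberg adjusted p under 0.05. Fold changes are 2 to the power of that fitted log2 difference, which understates the change of genes with few reads.

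Dystrophin links the actin skeleton of the muscle fibre, through a complex of membrane proteins, to the laminin of the basement membrane. In the mdx mouse, a model of Duchenne muscular dystrophy with a mutation in Dmd, fibres without this link are damaged by contraction, die, and are cleared by invading phagocytes, while satellite cells fuse into new fibres that pass again through embryonic gene expression. Fibro-adipogenic progenitors, the matrix-forming cells between fibres, lay down new matrix during the same repair. miR-133b is a microRNA of striated muscle that pairs with its targets through its seed. The mature strand is printed because neither group carries a deletion of its gene, which sets this comparison apart from the other 8 libraries, with the seed (bases 2 to 8) in capitals. RefSeq places it on chromosome 1 at 20682834 to 20682855, plus strand, in GRCm38.p6.
mmu-miR-133b-3p: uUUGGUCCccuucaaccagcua

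The 8 libraries hold 2879407 to 4317386 reads in the listed genes, and their full depth is unknown. The listed genes are a selection. Each differs at least 1.72-fold between the mean of mdx/miR-133b-/- and that of miR-133b-/-, and 809 of 831 have the same direction in mdx against Control, a comparison whose own 8 libraries did not enter that selection. Dmd, its relative Utrn and the host of miR-133b are not among them and were not analysed here, and the genotypes therefore rest on the labels. Groups follow the codes of the titles; in 14 of the 16 samples the description gives a code belonging to another sample, and grouped by it 0 genes were called by limma at the adjusted threshold. By the title codes, the first principal component of the 8 libraries (82.5% of the variance of the listed genes) placed Control between -20.83 and -14.57 and mdx between 15.17 and 21.28. Control 1 stands apart on the second component (6.65%), at 12.12, with the other 7 libraries between -6.8 and 1.8. Calls and counts below that change without it are given beside the main value. All 6 markers chosen for skeletal muscle fibres are listed (Ckm, Actn3, Pvalb, Myh4, Tnnt1 and Tnni1), and their sum ran from 592338.5 to 730144.7 scaled reads in Control and from 375546.9 to 552708.6 in mdx. Most of that sum is Myh4, with a Control mean of 392646.9. The markers did not move together: Myh4 and Ckm were called lower, Tnnt1 and Tnni1 higher, and Actn3 and Pvalb were not called. In a whole muscle, more cells of a type and more RNA per cell cannot be told apart.

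Most listed genes differed between mdx and Control, and rises were larger than falls. Of 831 genes, 550 were called (66.2%), 370 of them higher in mdx (44.5%) and 180 lower (21.7%). Without Control 1 the calls numbered 474, 333 higher and 141 lower. With only the 8 mdx and Control libraries fitted, and so without the wider spread of the other 8, they numbered 646, 413 higher and 233 lower. Every count of gene list members below is to be read beside the 44.5% higher and 21.7% lower of all listed genes. These shares change with abundance: 137 of 206 genes under 100 scaled reads were higher, but 1 of 23 at 10000 or more. It covers only members in the table, such as 16 of 42 monocyte and macrophage genes, 7 of 15 mitochondrially encoded genes and 4 of 11 embryonic and neonatal sarcomere genes. Members outside the table were not analysed here. All 4 mdx values lay outside the range of the 4 Control values in 585 genes (70.4%), above it in 384 and below it in 201. Higher genes had a median log2 difference of 1.31 and lower genes one of -0.80. Beyond a factor of 4 the split was 90 higher against 4 lower, and beyond 8 it was 19 against 0. The balance of directions depends on the scaling. With the authors' factors 67.3% of calls are higher, and the median of all listed genes stands at 0.44. With relative log expression factors from the listed genes, which bring that median near 0 (0.09), 49.1% are higher (260 higher and 270 lower), with upper quartile factors 62.6% (median 0.37), and with the listed reads of each library set to equal totals 93.5% (478 higher and 33 lower, median 0.95). The falls of Capn3, Flt1, Hk2, Perm1, Serpine2 and Tuba8 kept their direction with equal totals and were no longer called (-0.53 to -0.12).

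Size and direction of the change went with the abundance of the gene. Among the 206 genes with a mean under 100 scaled reads over the 8 libraries, 137 were higher, 15 were lower and the median log2 difference was 1.21. Between 1000 and 10000 scaled reads 20 of 134 genes were higher and 61 lower, with a median of -0.39. In the 23 genes at 10000 or more, 1 was higher and 15 were lower. The exception was Col3a1, the main collagen III chain of muscle connective tissue. It stood at 10224, 18458, 18910.4 and 18909 scaled reads in Control 1 to 4 and 31996, 29943, 30084 and 29863 in mdx 1 to 4. Eef1a1, the elongation factor that brings aminoacyl-tRNA to the ribosome, was the next most abundant higher gene, rising 1.999-fold from 5841 ± 640.2 to 11689.9 ± 1407 scaled reads (SD, n = 4 each). Genes called higher had a median of 144 scaled reads and genes called lower 678, while their GC content was close (48.8% and 49.2%). The higher genes also varied more between Control libraries, with a median coefficient of variation of 25.1% in Control and 16.4% in mdx, against 14.6% and 14.8% for the lower genes.

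**Figure D1:**
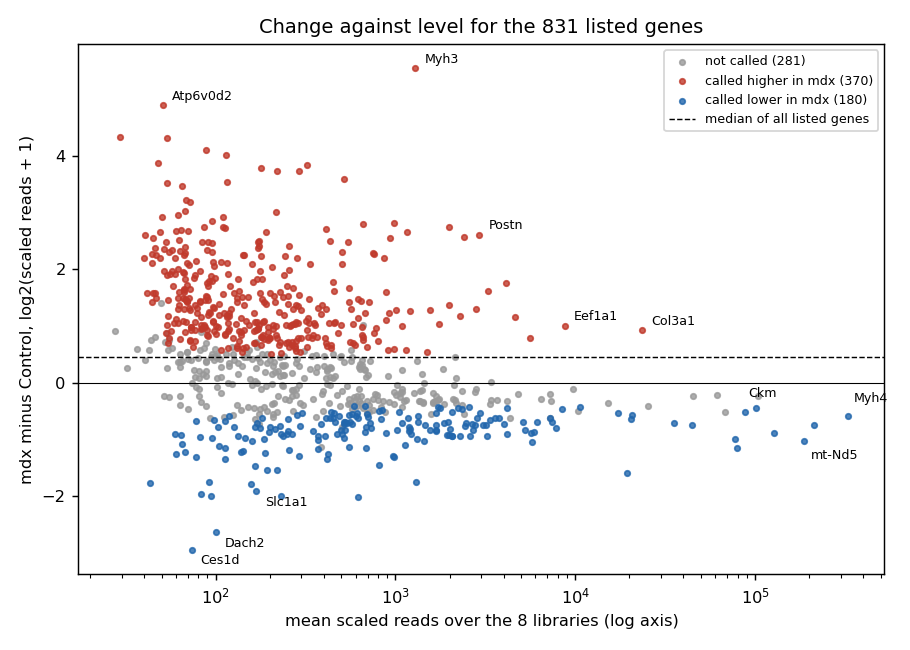
Each point is 1 of the 831 listed genes, placed by its mean scaled reads over the 8 libraries (log axis) and by its log2 difference, mdx minus Control, and coloured by its call. Rises fill the low and middle levels, with Myh3 highest at 5.54, while 15 of the 23 genes at 10000 or more scaled reads were called lower and 1, Col3a1, higher.

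Genes of newly forming fibres had the largest median difference of the lists with at least 4 listed members. All 4 listed genes of the embryonic and neonatal sarcomere were higher, with a median log2 difference of 3.33 against 0.44 over all listed genes. Myh3, the myosin heavy chain of embryonic fibres (chromosome 11, 67078300 to 67102291), stood at 48.6, 61.9, 35.8 and 36.6 scaled reads in Control 1 to 4 and at 1541, 3353, 4336 and 902 in mdx 1 to 4. The groups do not come near each other, and within mdx the highest library, mdx 3, is several times the lowest, mdx 4. The rise was 46.5-fold (5.54 on the log2 scale, SE 0.62, adjusted p = 6.2e-06), the largest of all listed genes. Myl4, the light chain of embryonic and atrial myosin, stood at 34.3, 39.2, 31.4 and 47.8 in Control 1 to 4 and 501, 702, 653 and 304 in mdx 1 to 4. Its groups are again far apart, and mdx 4 is again the lowest mdx library. Tnnt2, the troponin T of heart and embryonic muscle, rose 7.58-fold from 24.4 ± 9.36 to 194 ± 85.3, and Myl6b, another myosin light chain, 3.88-fold. The start of Myh3 is shown because it holds the letters of a TATA box at the usual distance; the window runs from 130 bases before the RefSeq start to 10 after it (chr11:67078170-67078309, plus strand, GRCm38.p6), with TATAAA in capitals, beginning 29 bases before the start.
Myh3: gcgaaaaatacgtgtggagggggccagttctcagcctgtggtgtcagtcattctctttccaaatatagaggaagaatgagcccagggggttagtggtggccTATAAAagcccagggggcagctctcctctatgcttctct

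TATAAA, read on both strands within 250 bases before to 50 after a start, was present in 12.2% of the 395 windows of genes called higher, 8.82% of the 170 of genes called lower and 5.65% of the 283 of genes not called. Over the 32851 windows of the whole RefSeq table the share was 13.6%. Of the listed genes 626 had a window in that table.

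Of 6 listed regulators of myoblast differentiation and fusion 5 were higher, 4 of them without Control 1. Mymk encodes myomaker, the membrane protein that lets myoblasts fuse. It stood at 50.7, 86.5, 91.4 and 55.2 scaled reads in Control 1 to 4 and 169, 322, 334 and 175 in mdx 1 to 4, with mdx 2 and mdx 3 well above mdx 1 and mdx 4. Cdkn1a, the cell cycle inhibitor p21 through which myoblasts leave the cycle, rose 2.84-fold to 349.7 ± 146 scaled reads. Igf2, a growth factor of developing muscle, rose 3.38-fold. Sox11, a transcription factor of developing tissues, went from 24.02 ± 10.7 to 90.3 ± 14.3, while its relative Sox4 differed by 0.29 (adjusted p = 0.349). Myog, the transcription factor of terminal differentiation, rose 2.34-fold, a call lost without Control 1, Control 2, mdx 1, mdx 2 or mdx 3 (log2 difference 1.03 to 1.22). Fgfr4, a receptor of satellite cells and myoblasts, was the only listed gene of the satellite cell list and rose 2.34-fold. Cdk6, the only listed cell cycle gene, rose 1.69-fold, a call lost without Control 1 (0.60) or mdx 2 (0.68).

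The listed slow-fibre genes rose as well, all 4 being higher, with a median of 1.70. Tnni1, slow troponin I, stood at 2.86, 16.4, 16.8 and 18.7 scaled reads in Control 1 to 4 and 152, 292, 301 and 114 in mdx 1 to 4. Control 1 is the lowest of the 8, and the other 3 Control libraries lie close together. Tnnt1, slow troponin T, rose 4.15-fold and reached 133, 185, 244 and 78.02 in mdx 1 to 4, the same order of libraries as in Myh3. Of the calcium store genes of slow and cardiac fibres, Atp2a2, the pump SERCA2, rose 2.04-fold from 1139.5 ± 81.8 to 2352 ± 479. Casq2, the calcium buffer calsequestrin 2, rose 2.56-fold from 1159 ± 388 to 2825 ± 337.

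**Figure D2:**
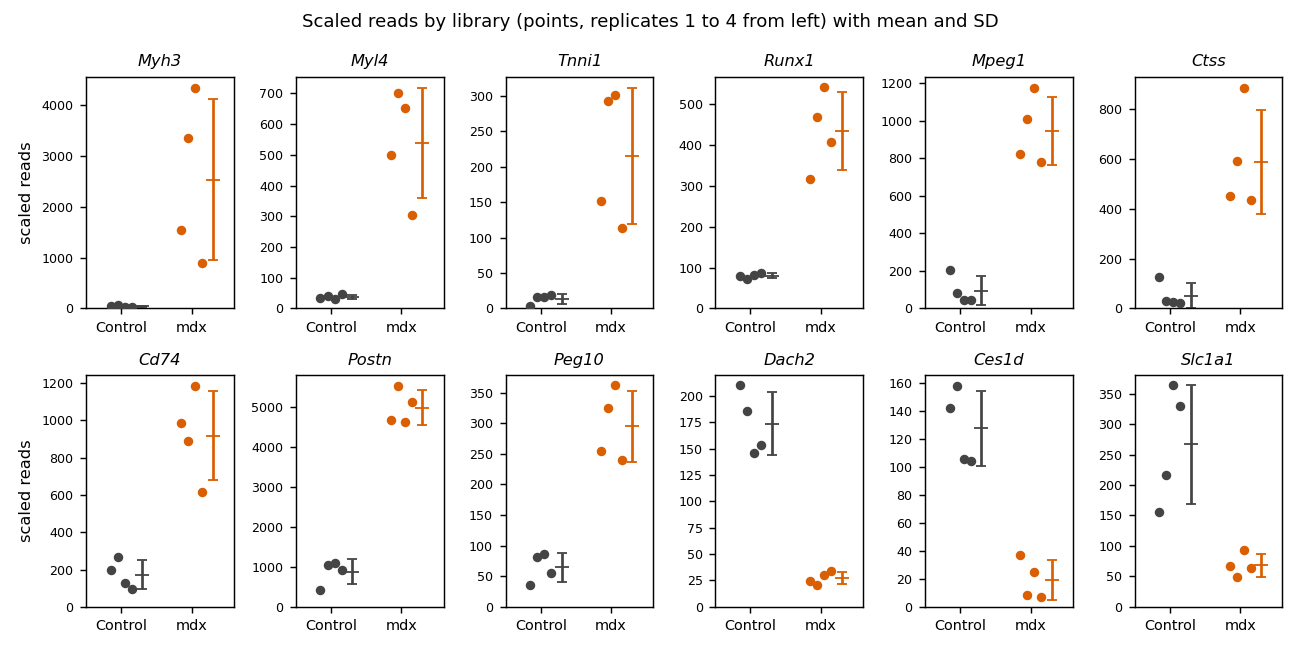
Scaled reads of 12 named genes in every Control and mdx library (points, replicates 1 to 4 from left to right; horizontal mark and bar, mean and SD, n = 4; each vertical axis starts at 0 and has its own scale). No mdx point overlaps a Control point in these genes. In scaled reads the spread within mdx is widest in Myh3, from 902.0 to 4336, while as a factor it is wider in Ces1d.

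Genes of the mature fast fibre were lower or not called, and their direction depends on the scaling. Of 5 listed fast-fibre genes 2 were lower, Myh4 and Ckm, and none higher, against 21.7% lower and 44.5% higher over all listed genes. All 5 lie above 10000 scaled reads, where 15 of 23 listed genes were lower and 1 higher. Without Control 1 none was called, and with only the 8 mdx and Control libraries fitted 3 were lower. Their median log2 difference was -0.45 with the authors' factors but 0.06 with equal totals of listed reads. Myh4, the IIb myosin heavy chain and the most abundant listed transcript, stood at 431637, 355071, 348669 and 435211 scaled reads in Control 1 to 4 and 343884, 236969, 272803 and 200838 in mdx 1 to 4. The ranges do not overlap, but mdx 1 lies just under Control 3, the lowest Control library, and the call was lost in 7 of the 8 settings that left out 1 of these libraries (log2 difference -0.65 to -0.47). Ckm, muscle creatine kinase, differed by -0.45 (adjusted p = 0.0409) and lost its call without Control 1, 2 or 3 or mdx 1, 2 or 4 (-0.48 to -0.36). Actn3, the fast actinin of the Z disc, stood at -0.52, Pvalb, the calcium buffer parvalbumin, at -0.22 and Tpm1, a tropomyosin, at -0.24, none of them called. Of the 4 other sarcomere and Z disc genes Xirp2, an actin-binding repeat protein of the Z disc and junctions, was lower (-0.57; -0.50 and not called without Control 1).

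Within the list of sarcomere and Z disc genes 1 member, Ankrd1, was higher. This ankyrin repeat protein of the I band, known to rise with stretch and injury, stood at 119, 179, 374 and 532 scaled reads in Control 1 to 4 and 1142, 1268, 1307 and 1188 in mdx 1 to 4. The 4 mdx values are nearly equal, while the Control values spread over a factor of more than 4. The rise was 4.78-fold (SE 0.52 on the log2 scale, adjusted p = 0.00137).

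Of 4 listed genes of excitation and calcium release 3 were lower (2 without Control 1) and 1 was higher. Ryr1, the calcium release channel of the sarcoplasmic reticulum, stood at 46386, 40246, 40027 and 48595 scaled reads in Control 1 to 4 and 33840.1, 28101, 25665 and 20965 in mdx 1 to 4. All mdx libraries lie below all Control libraries, and mdx 4 is the lowest. Kcnc4, a voltage-gated potassium channel, fell 1.998-fold to 1208, 751, 1222 and 494 in mdx 1 to 4, with mdx 2 and mdx 4 lowest. Kcnn3, the small-conductance calcium-activated channel SK3, moved the other way, from 185, 232, 289 and 199 in Control 1 to 4 to 409.6, 692, 403 and 399 in mdx 1 to 4, a 2.07-fold rise. Its values in mdx 1, mdx 3 and mdx 4 are nearly equal and mdx 2 lies above them. Kcna7, another potassium channel, differed by -0.54, a call lost in 6 of the 8 settings that left out 1 library (-0.55 to -0.46). With equal totals of listed reads the falls of Ryr1 (-0.20) and Kcnc4 (-0.49) kept their direction and were no longer called.

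Most listed genes of the nerve-muscle synapse, which denervated or immature fibres also express away from it, rose. Of 7 listed genes of the junction and of the response to denervation 5 were higher and 1 was lower, also without Control 1. Chrng, the fetal gamma subunit of the acetylcholine receptor, stood at 4.29, 21.5, 15.4 and 13.4 scaled reads in Control 1 to 4 and 86.3, 132, 234 and 67.9 in mdx 1 to 4. Even the lowest mdx library is more than 3 times the highest Control library. Runx1, a transcription factor induced by denervation, rose 5.27-fold, from 80.1 ± 6.17 to 434 ± 95.3. The alpha and delta subunits of the receptor, Chrna1 and Chrnd, rose 2.19-fold and 2.75-fold, and the adhesion molecule Ncam1 3.42-fold. Musk, the receptor kinase that organises the junction, stood at 0.30 (adjusted p = 0.348). Dach2, a corepressor that acts on Myog, fell. It stood at 210.1, 186, 146 and 154 in Control 1 to 4 and 24.7, 20.8, 29.8 and 33.7 in mdx 1 to 4, a 6.22-fold fall (adjusted p = 9.89e-06), second in size to that of Ces1d among all listed genes.

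Of the partners of dystrophin 1 rose. Of 5 listed genes of the dystrophin complex and costamere only Lama2, the laminin chain to which the complex binds, was called, rising 1.45-fold from 1235 ± 232 to 1774 ± 175; it was not called with relative log expression factors (0.18). The syntrophins Sntb1 and Sntb2 stood at 0.40 and 0.10, and the neuronal nitric oxide synthase Nos1 at -0.16. Nos1 ranged from 766 to 1467 scaled reads in Control and from 707 to 1167 in mdx. Of the 7 listed genes of microtubules and the cytoskeleton 5 were higher and 1 lower. Tubb6, a beta tubulin isotype, stood at 62.2, 78.3, 148 and 121 in Control 1 to 4 and 201, 252, 393 and 234 in mdx 1 to 4, higher in every mdx library. Vash2, which removes the terminal tyrosine of alpha tubulin, rose 2.12-fold, and its partner Svbp stood at 0.57 and was not called. Tuba8, an alpha tubulin, fell 2.05-fold, from 1900.2 ± 85.5 to 971 ± 320.4. Tmsb10, which binds actin monomers, rose 3.38-fold and Lcp1, the actin bundler of leukocytes, 2.90-fold.

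**Figure D3:**
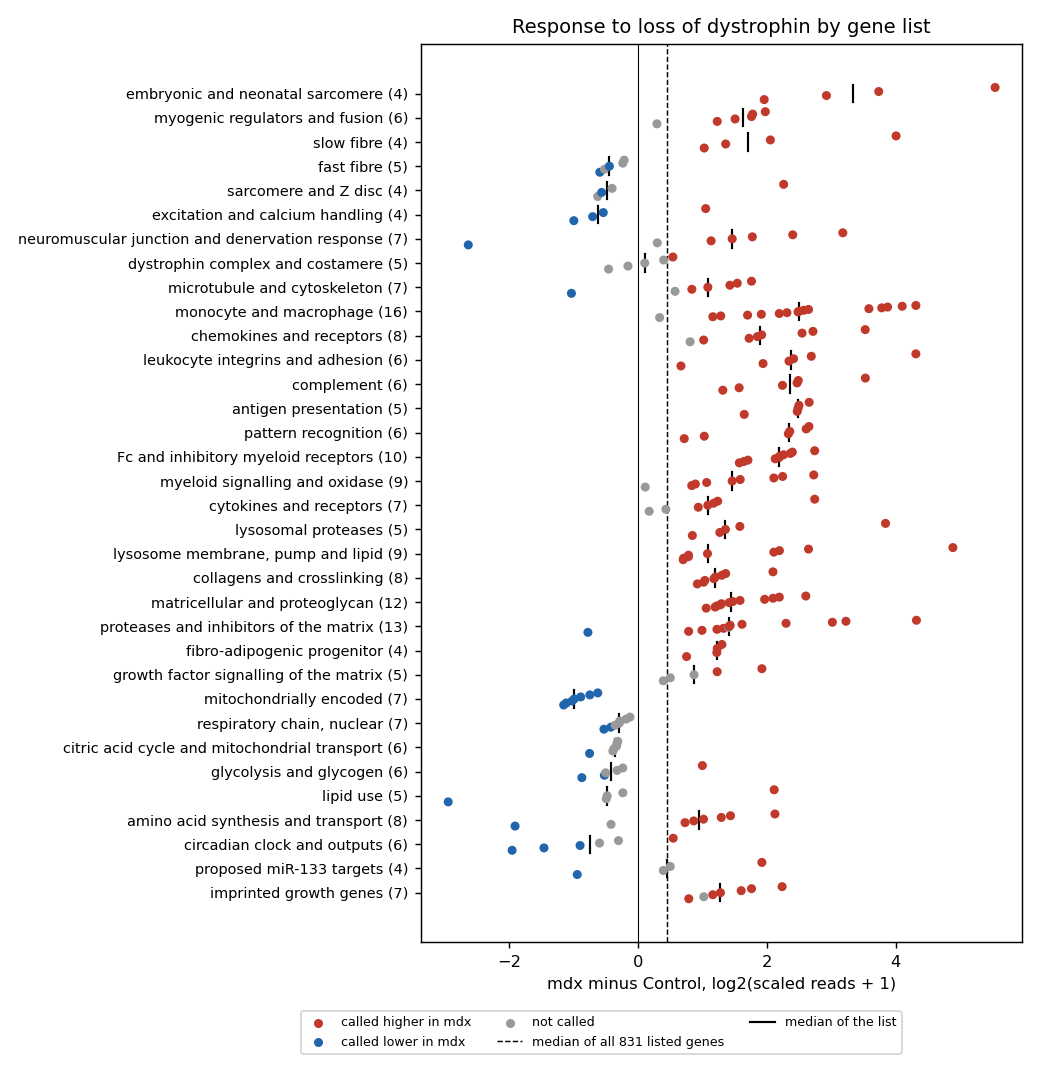
Log2 difference, mdx minus Control, of each listed member (point, coloured by its call) in the gene lists with at least 4 listed members; the number of listed members is in parentheses, the short bar is the list median and the dashed line the median of all 831 listed genes, 0.44. The medians of the embryonic sarcomere, myeloid, lysosome and matrix lists lie to the right of the dashed line, though single members do not. The medians of the fast fibre, sarcomere and Z disc, respiratory chain, citric acid cycle, glycolysis and lipid use lists, left of 0 here, lie between 0.02 and 0.21 with equal totals of listed reads.

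Listed macrophage genes rose together. Of the 16 listed monocyte and macrophage genes 15 were higher, also without Control 1, against 44.5% higher over all listed genes. Their median log2 difference was 2.49, against 0.44 over all listed genes. The level in Control was low for most of them, and of all listed genes with a mean under 100 scaled reads 137 of 206 were higher. Itgax, the integrin chain CD11c, stood at 8.57, 3.79, 5.12 and 1.49 scaled reads in Control 1 to 4 and 81.4, 119, 111 and 96.5 in mdx 1 to 4, a 19.8-fold rise. Ms4a7, a tetraspan protein of macrophages, stood at 20.01, 10.7, 9.51 and 2.24 in Control 1 to 4 and 142, 205, 179.9 and 134 in mdx 1 to 4. Mpeg1, the pore-forming perforin-2 of phagocytes, stood at 207, 81.5, 45.3 and 45.5 in Control 1 to 4 and 824, 1007, 1173 and 777 in mdx 1 to 4. In all 3 genes the groups are far apart, and in each of them Control 1 is the highest Control library. Gpnmb, a glycoprotein of macrophages that have taken up debris, has the highest Control 1 value relative to the other Control libraries of these 4 genes, at 99.3, 8.84, 14.6 and 15.7 in Control 1 to 4 against 188, 319.9, 479.6 and 314 in mdx 1 to 4.

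Other markers of phagocytes rose as well. Lyz2, lysozyme, rose 5.94-fold to 4118 ± 998 scaled reads and Csf1r, the receptor for the macrophage growth factor, 4.56-fold. Clec7a, the glucan receptor dectin-1, rose 14.6-fold and the scavenger receptor Msr1 5.58-fold. Cx3cr1, the fractalkine receptor, rose 2.43-fold from 41.2 ± 4.82 to 103 ± 21.03. The exception was Mrc1, the mannose receptor of resident and repair macrophages. It stood at 367, 631, 691 and 581 in Control 1 to 4 and 621, 688, 755 and 726 in mdx 1 to 4, so that the groups overlap (log2 difference 0.33, adjusted p = 0.234).

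Signals and receptors of monocyte entry rose, 7 of 8 listed chemokine and chemokine receptor genes being higher (8 without Control 1). Ccr2, the receptor that brings monocytes out of the blood, stood at 213, 159, 51.9 and 66.4 scaled reads in Control 1 to 4 and 657, 658, 924 and 559.6 in mdx 1 to 4. Control spreads over a factor of about 4, with Control 1 highest, and every mdx library lies above it. Ccl7, a ligand of that receptor, rose 5.83-fold and reached 34.6, 97.3, 135 and 48.3 in mdx 1 to 4; it was not called with limma-voom on recovered reads (2.62, adjusted p = 0.0888). Ccl6 rose 3.77-fold, Ccl9 3.30-fold and Cxcl16, a chemokine and scavenger receptor of the cell surface, 3.61-fold. Cxcl9, a chemokine induced by interferon gamma, stood at 0.81 (adjusted p = 0.0773) with overlapping groups. Cxcr4 was called at 1.02 although Control 2 (202 scaled reads) lies above mdx 1, mdx 2 and mdx 3, and lost the call without Control 3 (0.76) or Control 4 (0.81). All 6 listed adhesion genes of leukocytes were higher, 5 without Control 1. Itgb2, the beta-2 integrin chain that pairs with Itgax, stood at 30.7, 12, 13.9 and 11.9 in Control 1 to 4 and 101, 113, 160.0 and 71.8 in mdx 1 to 4. Ptprc, the pan-leukocyte marker CD45, went from 82.9, 66.96, 40.95 and 38.1 to 299, 286, 298 and 291, and its 4 mdx values are nearly equal. Cd48, Cd53 and Cd44 rose 5.07-fold, 3.83-fold and 1.58-fold; Cd44 was not called without Control 1 (0.57).

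Recognition and presentation genes of these cells were almost all higher. All 6 listed complement genes rose, with a median of 2.35. The 3 chains of C1q, the opsonin that opens the classical pathway, rose alike, C1qa 5.60-fold, C1qb 4.72-fold and C1qc 5.52-fold. The receptors of the complement fragments C3a and C5a, C3ar1 and C5ar1, rose 11.5-fold and 2.96-fold. All 5 listed genes of antigen presentation rose. H2-Aa, a class II chain, stood at 287, 431, 255 and 290.3 scaled reads in Control 1 to 4 and 2274, 2289.6, 2248 and 1244 in mdx 1 to 4. The first 3 mdx libraries are nearly equal and mdx 4 lies well below them, still above all of Control. Cd74, the invariant chain that class II molecules need, stood at 195, 269, 128 and 95.5 in Control 1 to 4 and 984, 890.0, 1186 and 615 in mdx 1 to 4, and mdx 4 is again the lowest mdx library. All 6 listed pattern recognition genes were higher, 4 without Control 1. Tlr1, the partner of Tlr2 for bacterial lipopeptides, stood at 20.7, 13.3, 10.97 and 8.21 in Control 1 to 4 and 91.8, 73.4, 99.3 and 75.8 in mdx 1 to 4. The receptors of RNA inside endosomes, Tlr7 and Tlr13, rose 6.09-fold and 5.11-fold, and Clec4a1, a C-type lectin, 5.03-fold. Tlr7 was not called with limma-voom on recovered reads (2.66, adjusted p = 0.0699). Tlr4, the receptor of endotoxin, rose 1.64-fold from a much higher Control level (195 ± 54.4), a call lost without Control 1, Control 2, mdx 2 or mdx 3 (0.53 to 0.69).

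Activating and inhibitory receptors of myeloid cells rose side by side, all 10 listed members being higher with a median of 2.19, also without Control 1. Fcer1g, the signalling chain of activating Fc receptors, rose 4.37-fold and Fcgr2b, the inhibitory Fc receptor, 5.14-fold. Cd84 stood at 32.9, 23.4, 14.6 and 18.7 scaled reads in Control 1 to 4 and 134, 159, 146 and 158 in mdx 1 to 4, with the mdx values close together. Sirpa, which reads the signal CD47 on cells that are not to be eaten, rose 3.25-fold, and the inhibitory receptors Pirb and Lair1 5.25-fold and 4.78-fold. Of 9 genes of myeloid signalling 8 were higher, 7 without Control 1 and 6 with relative log expression factors. Cybb, the catalytic subunit of the phagocyte oxidase, stood at 50.02, 62.5, 9.51 and 17.9 in Control 1 to 4 and 156, 226, 228 and 149 in mdx 1 to 4. Nckap1l, the actin regulator Hem1 of blood cells, rose 4.73-fold and the phosphatase Inpp5d (SHIP1) 2.09-fold. The kinase Lyn stood at 0.11 from a level of 440.5 ± 30.4 in Control and was not called. Of 7 cytokine receptors 5 were higher, but only 2 with relative log expression factors. Among the 5 were Il10ra, 6.68-fold, Tnfrsf1b, 2.35-fold, and Il13ra1, 2.12-fold (0.73 and not called with relative log expression factors). Csf2rb2, also among them at 1.17, lost the call without Control 3, Control 4, mdx 2 or mdx 3 (0.98 to 1.14). Il1r1 (0.17) and Il4ra (0.43) were not called. Oas2, the only listed interferon response gene, rose 3.07-fold.

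The lysosomal genes in the table rose. All 5 listed proteases of the lysosome were higher, with a median of 1.35. Ctss, cathepsin S, which trims the invariant chain in antigen-presenting cells, stood at 128, 30.9, 27.1 and 20.1 scaled reads in Control 1 to 4 and 449, 590.3, 884 and 434 in mdx 1 to 4. Control 1 lies above the other Control libraries, and the lowest mdx library is still more than 3 times Control 1. The rise was 14.3-fold (SE 0.60 on the log2 scale, adjusted p = 6.62e-05). Ctsk, the collagen-cleaving cathepsin, rose 2.98-fold, Lgmn, the asparaginyl protease legumain, 2.41-fold, Ctsh 2.56-fold and Ctsz 1.79-fold. All 9 listed genes of the lysosome membrane, its pump and its lipid handling were higher, 5 of them with relative log expression factors, where Cd63, Lipa and Sgpl1 were among those not called (0.34 to 0.42). Atp6v0d2, a proton pump subunit of macrophages and osteoclasts (chromosome 4, 19876841 to 19922605), stood at 12.9, 3.79, 0.731 and 0 in Control 1 to 4 and 69.8, 122, 105 and 93.7 in mdx 1 to 4. This is the largest rise after Myh3 (4.88 on the log2 scale, SE 0.91), from a Control level of a few reads. Lgals3, the lectin that binds damaged lysosomes, rose 6.25-fold and Slc37a2, a sugar phosphate carrier of macrophages, 4.57-fold. Grn, progranulin, rose 2.11-fold, Cd63 1.72-fold, and the lipid-cleaving enzyme Lipa 1.63-fold.

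The letters GAGGAAGT, a core read by the myeloid factor PU.1 and other ETS factors, were searched on both strands in the promoter windows. They were present in 4.30% of windows of genes called higher, 2.35% of those called lower and 1.06% of those not called, against 3.20% in the whole RefSeq table, so the share among higher genes is close to that of all promoters. The 17 higher genes with a match include Ctss, Tlr1, C1qc, Pirb, Cd53, Inpp5d and Mmp12. Among the immune lists, 0 of 14 monocyte and macrophage windows had a match, 0 of 5 chemokine and receptor windows and 0 of 2 antigen presentation windows. Myeloid signalling had 2 of 8. The integrin (6 windows), complement (4), pattern recognition (4), Fc and inhibitory receptor (8) and cytokine (7) lists had 1 each. The windows of Ctss (chr3:95526656-95526795, plus strand) and Tlr1 (chr5:64933549-64933688, minus strand) are shown because the match lies next to the start, beginning 2 and 23 bases before it; capitals mark the match, which in Ctss is on the opposite strand.
Ctss: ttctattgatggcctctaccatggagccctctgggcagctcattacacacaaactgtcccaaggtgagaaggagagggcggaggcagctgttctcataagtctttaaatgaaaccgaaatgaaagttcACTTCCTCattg
Tlr1: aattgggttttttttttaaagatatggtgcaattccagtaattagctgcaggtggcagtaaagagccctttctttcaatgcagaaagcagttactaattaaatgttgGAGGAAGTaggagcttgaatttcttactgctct

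Markers of other cells were sparse in the list. Of 5 lymphocyte markers only Ighm, the immunoglobulin mu chain, is listed, and it stood at 1229.8, 418, 184 and 387 scaled reads in Control 1 to 4 and 312, 166, 301 and 102 in mdx 1 to 4. It was not called (-1.13, adjusted p = 0.0763), and Control 1 lies far above the rest. The log2 difference was -0.63 without Control 1, while the gene was called lower without Control 3 (-1.54), with relative log expression factors (-1.48) and with a replicate block (-1.13). Flt1, a receptor of vascular endothelial growth factor and the only listed endothelial marker of 4, fell 1.68-fold, from 1813 ± 163 to 1089 ± 190.0. No listed gene belongs to the markers chosen for neutrophils, pericytes, tendon, Schwann cells, adipocytes, erythrocytes or satellite cells, which were not analysed here. The 3 listed macrophage markers Adgre1, Csf1r and Mpeg1 summed to 166 to 384.5 scaled reads in Control and 1442 to 2053 in mdx, and the 2 listed markers of fibro-adipogenic progenitors, Pdgfra and Lum, to 689 to 1200.3 and 1867.5 to 2319. How far cell content and expression per cell each account for these sums was not tested.

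Connective tissue genes rose in step. All 8 listed collagens and crosslinking enzymes were higher, with a median of 1.19, and all 12 matricellular proteins and proteoglycans, with a median of 1.44; both counts were the same without Control 1. The summed collagen reads in mdx 1 to 4 were 1.95, 1.87, 1.89 and 1.88 times the Control mean, close together, and most of these reads are those of Col3a1. In Control they were 0.627, 1.12, 1.14 and 1.11, with Control 1 low. Col8a1, a short-chain collagen, rose most, from 150.1, 118, 134 and 93.3 scaled reads in Control 1 to 4 to 319.5, 533, 587 and 754 in mdx 1 to 4. Its mdx values differ among themselves, with mdx 4 highest and mdx 1 lowest. Col5a2, which sets fibril diameter together with collagen I, rose 2.26-fold, Col12a1, a collagen on the surface of fibrils, 2.56-fold, and the crosslinking enzymes Lox and Loxl1 2.30-fold and 2.46-fold.

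Among matricellular proteins, which modulate cells without building fibres, Postn, periostin (chromosome 3, 54361109 to 54391037), led. It stood at 419, 1046, 1106 and 918 scaled reads in Control 1 to 4 and 4668, 5524, 4606 and 5113 in mdx 1 to 4, with Control 1 below the other Control libraries. Tnc, tenascin C, stood at 95.04, 152, 305 and 251 in Control 1 to 4 and 548, 813, 1183 and 708 in mdx 1 to 4, with mdx 3 highest. Thbs4, a thrombospondin of muscle and tendon, rose 4.57-fold to 1410.0 ± 204, and Thbs2 and Thbs3 2.66-fold and 2.77-fold. Fn1, fibronectin, rose 2.42-fold, and the small proteoglycans Bgn (biglycan) and Lum (lumican) 2.45-fold and 2.33-fold. All 4 listed genes of fibro-adipogenic progenitors were higher. Pdgfra, their defining receptor, stood at 300.1, 455, 325 and 249 in Control 1 to 4 and 831, 900.4, 731 and 747 in mdx 1 to 4. Fap, a surface protease of activated fibroblasts, rose 1.68-fold and was not called with relative log expression factors (0.39).

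Enzymes that cut matrix rose with it. Of 13 listed proteases and inhibitors of the matrix 11 were higher and 1 lower, also without Control 1. Mmp12, the macrophage elastase, stood at 3.57, 1.26, 0 and 4.48 scaled reads in Control 1 to 4 and 34.1, 48.9, 71.2 and 70.2 in mdx 1 to 4. Mmp13, a collagenase, stood at 10.7, 22.7, 6.58 and 4.48 in Control 1 to 4 and 79.2, 30.6, 132 and 260.4 in mdx 1 to 4. Control holds only a few reads of Mmp12. The mdx values of Mmp13 spread over a factor of more than 8, from mdx 2 to mdx 4, and it was not called with limma-voom on recovered reads (3.32, adjusted p = 0.0567). Mmp14, the membrane-bound protease that activates pro-MMP2, rose 2.66-fold from 389.8 ± 75.2 to 1027 ± 98.3, and Mmp2 itself 2.33-fold. Timp1, the inhibitor of metalloproteinases, rose 8.08-fold and reached 64.3, 127, 172 and 118 in mdx 1 to 4. Of the membrane-anchored ADAM proteases, Adam8 of leukocytes rose 4.91-fold, Adam12 of fusing myoblasts and fibroblasts 2.51-fold and Adam19 3.06-fold. Adamts4 was not called (1.40, adjusted p = 0.14), although all its mdx values lie above Control. Serpine2, an inhibitor of thrombin and plasminogen activators, fell 1.72-fold, from 863 ± 102 to 508 ± 106.

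**Figure D4:**
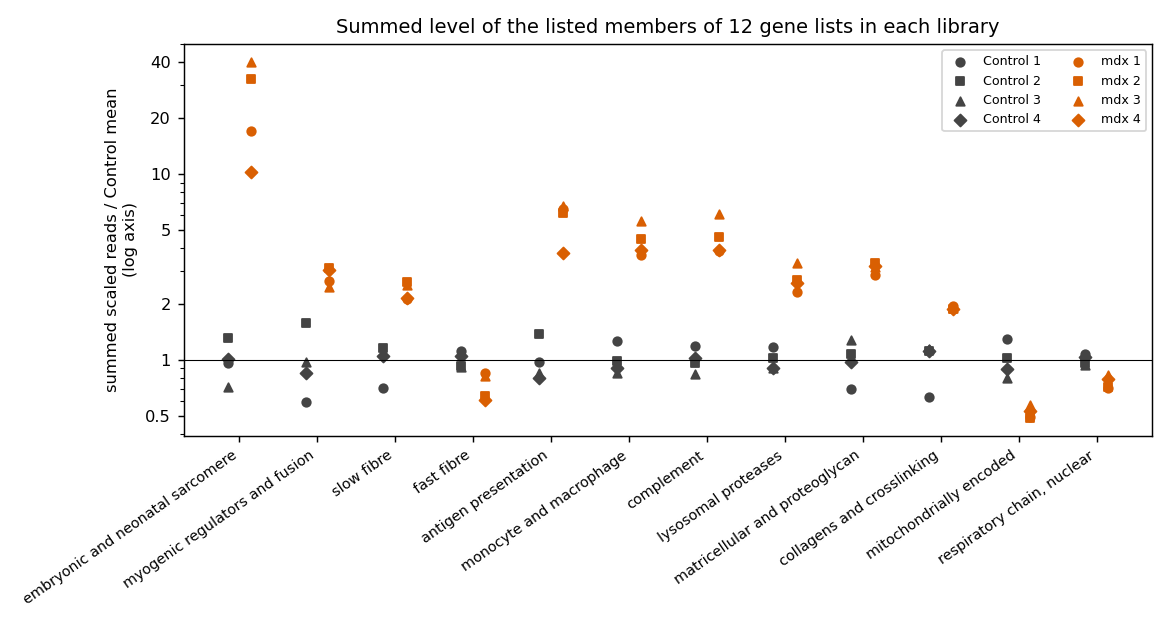
Summed scaled reads of the listed members of 12 gene lists in each library, divided by the mean of the 4 Control libraries (log axis); shapes mark replicates and colours the groups. The embryonic sarcomere sum runs from 10.2 to 40.2 times the Control mean within mdx, while the collagen sum stays between 1.87 and 1.95; Control 1 lies below the other Control libraries in collagens, matricellular and slow fibre genes.

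The 4 mdx libraries were not alike in every programme. The embryonic sarcomere sum reached 17.0, 32.6, 40.2 and 10.2 times the Control mean in mdx 1 to 4, and the acetylcholine receptor and denervation sum 1.76, 2.55, 3 and 1.69 times. Macrophage genes stood at 3.65, 4.48, 5.61 and 3.88 times, and complement at 3.86, 4.60, 6.11 and 3.90 times, so mdx 2 and mdx 3 were the higher pair in all 4 lists. Antigen presentation had another order, 6.47, 6.18, 6.71 and 3.78 times, with mdx 4 alone below. Matricellular genes were nearly level at 2.85, 3.33, 3.17 and 3.20 times. Each sum weighs abundant members most, Myh3 in the first, and 4 libraries are too few to test how the lists relate.

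Mitochondrially encoded transcripts were lower. All 9 listed mitochondrial genes, 7 of them coding for proteins, were called lower, with a median log2 difference of -0.99 over the 7 (5 called without Control 1). Their share of listed reads was 37.7%, 36.5%, 30.6% and 30.2% in Control 1 to 4 and 23.0%, 24.9%, 25.5% and 27.3% in mdx 1 to 4. The groups do not overlap, and the mean fell by 8.58 percentage points, from 33.7% ± 3.89 to 25.2% ± 1.76 (SD, n = 4 each; exact permutation test, two-sided, p = 0.0286, the smallest that 4 against 4 can give). mt-Nd5, a complex I subunit, fell 2.04-fold, from 330338, 275868, 181301 and 221196 scaled reads in Control 1 to 4 to 114111, 118129.6, 131418 and 120321 in mdx 1 to 4. mt-Nd2 fell 2.23-fold and mt-Cytb, of complex III, 1.86-fold. mt-Nd1, the most abundant of them, fell 1.68-fold, a call lost without Control 1 (-0.60), and mt-Co2, of complex IV, 1.54-fold, lost without Control 1 (-0.54) or mdx 2 (-0.59). The coding genes mt-Co2 and mt-Atp6 held few reads, with Control means of 524.7 and 143.4 scaled reads, against 102173.9 to 267508.5 in the other coding genes. Why their level is so low was not tested. The transfer RNAs mt-Tm and mt-Tw fell 3.35-fold and 2.73-fold. With equal totals of listed reads all 7 coding genes kept a negative difference and 4 of them their call.

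**Figure D5:**
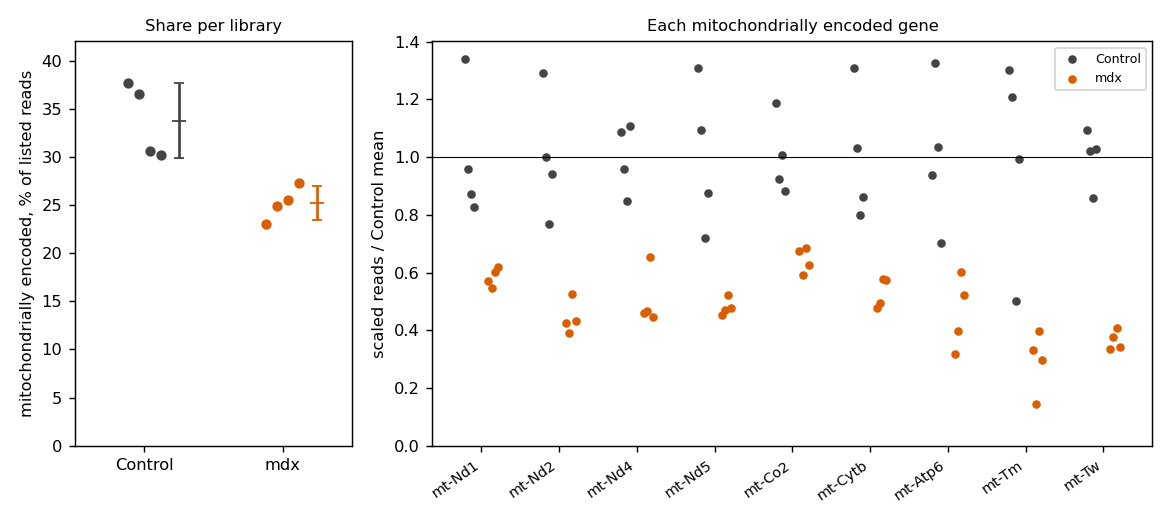
Left, the share of listed reads in the 9 listed mitochondrially encoded genes (%) in each Control and mdx library (points) with mean and SD, n = 4. Right, scaled reads of each of these genes in every library divided by its Control mean (linear axes from 0); every mdx point lies below every Control point of its gene, most closely in mt-Tm, where 1 Control library lies near the mdx points.

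Nuclear genes of energy metabolism moved less, and their direction depends on the scaling. Of 7 listed nuclear genes of the respiratory chain 2 were lower and none higher (median -0.29, but 0.21 with equal totals of listed reads), and of 6 genes of the citric acid cycle and its supply 1 was lower (median -0.36, but 0.15). These shares are near the 21.7% called lower over all listed genes. With relative log expression factors 5 and 6 were lower, and without Control 1 the counts were 1 and 1. With only the 8 mdx and Control libraries fitted, 3 and 6 were lower, beside 233 of all 831 listed genes. Ndufs1, of complex I, stood at 12297, 11608, 11908 and 12698 scaled reads in Control 1 to 4 and 9247, 9102, 8780.0 and 9005 in mdx 1 to 4. The groups do not overlap, yet the difference is small (-0.42), its call was lost without Control 4 (-0.40) or mdx 3 (-0.41), and it turned to 0.08 with equal totals. Cox5a, of complex IV, was called at -0.53 and lost the call in each of the 8 settings that left out 1 library (-0.58 to -0.48). Perm1, a muscle regulator of mitochondrial genes, fell 1.69-fold, from 4002 ± 395 to 2404 ± 521. Of 6 genes of glucose use 2 were lower (1 without Control 1) and 1 higher (median -0.42, but 0.09 with equal totals), and the 2 hexokinases went opposite ways. Aldoa, a glycolytic aldolase, was called at -0.52 and lost the call without Control 1, Control 4, mdx 1, mdx 2 or mdx 4 (-0.51 to -0.45). Hk2, the insulin-responsive hexokinase of muscle, stood at 6714, 4869, 6912 and 12414 in Control 1 to 4 and 3436, 3338, 4676 and 4630.0 in mdx 1 to 4. Hk1, the form of most other cells, stood at 133, 151, 142 and 154 in Control 1 to 4 and 274, 324, 250.5 and 316 in mdx 1 to 4. Slc2a4, the insulin-responsive glucose transporter, stood at -0.51 and was not called.

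Lipid genes split. Ces1d, a carboxylesterase that cleaves lipid esters (chromosome 8, 93166068 to 93197838), stood at 142, 158, 106 and 104 scaled reads in Control 1 to 4 and 36.8, 8.56, 24.8 and 6.74 in mdx 1 to 4, and its 7.72-fold fall (adjusted p = 0.000222) was the largest of the list. Within mdx its values spread over a factor of more than 5, with mdx 2 and mdx 4 lowest. Apoe, the lipid carrier that macrophages secrete, rose 4.32-fold and reached 143, 185, 297 and 135 in mdx 1 to 4. Cpt2 (-0.48), Dgat2 (-0.50) and Plin5 (-0.24) were not called.

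Genes of amino acid synthesis and import rose, 6 of 8 listed members (5 without Control 1), while 1 fell. With relative log expression factors 4 were higher and 2 lower. Asns, asparagine synthetase, stood at 25.7, 56.2, 33.6 and 39.6 scaled reads in Control 1 to 4 and 68.7, 109, 109 and 90.4 in mdx 1 to 4. Phgdh and Psat1, the first steps of serine synthesis, rose 2.70-fold and 2.02-fold. Slc38a1, a glutamine transporter, stood at 32.2, 46.8, 40.2 and 36.6 in Control 1 to 4 and 162, 233, 167 and 137 in mdx 1 to 4, and Slc7a11, the cystine importer, rose 1.82-fold (0.51 and not called with relative log expression factors). Slc1a1, a glutamate and aspartate transporter, moved against them, from 155, 217, 364 and 329.9 in Control 1 to 4 to 66.5, 48.3, 93.3 and 64.5 in mdx 1 to 4. All its mdx values lie below its lowest Control value. The letters TGATGNAA, bound by ATF4 with C/EBP partners in amino acid response elements, were found on either strand in 4 of 11 windows of this list (36.4%), those of Asns, Slc7a11 and 2 starts of Slc7a7, against 3.97% of the whole RefSeq table, 4.05% of windows of genes called higher and 3.53% of those called lower. Of the 11 windows 5 are starts of Slc7a7, and Phgdh, Psat1 and Slc1a1 had no match. Other motifs and lists were searched too, and this share was not tested. Slc7a7, called at 0.73, lost the call with relative log expression or upper quartile factors and without Control 1, Control 3, Control 4 or mdx 4 (0.37 to 0.67). The windows of Asns (chr6:7693200-7693339, minus strand) and Slc7a11 (chr3:50443604-50443743, minus strand) are shown because their matches lie close to the start, 23 bases before it in Asns and 66 and 47 bases before it, on opposite strands, in Slc7a11; capitals mark them.
Asns: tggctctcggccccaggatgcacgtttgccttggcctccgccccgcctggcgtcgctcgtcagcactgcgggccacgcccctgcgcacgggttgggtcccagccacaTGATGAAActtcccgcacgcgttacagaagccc
Slc7a11: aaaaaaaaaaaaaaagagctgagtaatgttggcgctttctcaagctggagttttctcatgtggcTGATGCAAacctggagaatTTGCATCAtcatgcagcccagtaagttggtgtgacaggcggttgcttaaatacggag

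Of 6 listed clock genes 3 were lower and 1 higher, against 21.7% lower and 44.5% higher over all listed genes. Without Control 1 the lower genes numbered 4, and with equal totals of listed reads 2. Ciart, a repressor of the clock (chromosome 3, 95878503 to 95882251), stood at 77.2, 60.01, 192 and 212 scaled reads in Control 1 to 4 and 28.04, 38.5, 24.3 and 28.6 in mdx 1 to 4. The mdx values are close together, while the Control values form a lower and a higher pair. Hlf, an output transcription factor, fell 2.75-fold, from 244 ± 39.9 to 89.2 ± 22.9. Arntl, the core activator also called Bmal1, was called at 0.54 with overlapping groups, and lost the call in 6 of the 8 settings that left out 1 of these libraries (0.38 to 0.60). Dbp, another output, stood at -0.31 and Per2 at -0.60, neither called. The time of day of collection is not in the labels, and its part in these values was not tested. CACGTG is the E-box that the clock activators bind and that MYC and lysosomal regulators also read. It was in 9.41% of windows of lower genes, 4.56% of higher genes, 7.07% of genes not called and 7.15% of the RefSeq table. In the clock list 1 of 5 windows held it, that of Ciart. The window of Ciart (chr3:95882219-95882358, minus strand) is shown because it holds this palindrome 3 times, beginning 116, 58 and 44 bases before the start, in capitals.
Ciart: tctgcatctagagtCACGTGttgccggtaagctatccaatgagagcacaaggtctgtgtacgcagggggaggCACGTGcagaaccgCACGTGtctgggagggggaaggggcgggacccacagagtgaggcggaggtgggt

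Imprinted growth genes, many of which are turned down after birth, were higher in 6 of 7 listed members, also without Control 1. Peg10, a paternally expressed gene derived from a retrotransposon, stood at 35.02, 82.1, 85.5 and 55.98 scaled reads in Control 1 to 4 and 254, 325, 362 and 239 in mdx 1 to 4. Peg3 and Zim1, neighbours in 1 imprinted cluster of chromosome 7, rose 2.23-fold and 2.42-fold. Plagl1, a zinc finger factor that acts on other imprinted genes, stood at 259, 537, 638 and 372 in Control 1 to 4 and 1592, 1466, 867 and 1382 in mdx 1 to 4. In all 4 of these genes every mdx value lies above every Control value, and Control 1 is the lowest Control library. Grb10, an adaptor of insulin and growth factor receptors, rose 1.72-fold and was not called with relative log expression factors (0.43). Mirg, a non-coding RNA of the Dlk1 cluster, stood at 1.02 with overlapping groups (adjusted p = 0.0721).

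The other large falls were in genes of varied function. Dusp26, a dual-specificity phosphatase, fell 3.43-fold, from 279, 186, 219 and 273 scaled reads in Control 1 to 4 to 110.5, 68.5, 92.7 and 30.3 in mdx 1 to 4. Amd1, the decarboxylase that commits S-adenosylmethionine to polyamines, stood at 4257, 1029, 918 and 2092 in Control 1 to 4 and 498, 433, 688 and 441 in mdx 1 to 4, with Control 1 far above the others. Mylk4, a myosin light chain kinase relative, fell 3.02-fold from 29248 ± 6621 to 9632 ± 1820.5, the largest fall among genes above 10000 scaled reads. Paqr9 and Efcab6 each fell 2.89-fold. Among the largest rises, Cyfip2, a subunit of the actin-nucleating WAVE complex, belongs to no list. It stood at 35.02, 39.8, 24.1 and 18.7 in Control 1 to 4 and 244, 416, 342 and 644 in mdx 1 to 4, with mdx 4 highest. Of 3 genes of membrane repair Anxa1 and Anxa4, annexins that bind exposed phospholipid, rose 2.41-fold and 2.77-fold, and Capn3, the muscle calpain, fell 1.54-fold. Of 4 genes that have been proposed as targets of miR-133, Runx2 rose 3.78-fold, Klf15 was called at -0.95 and lost the call without Control 3, Control 4, mdx 2 or mdx 4 (-0.88 to -0.62), and Gli3 (0.39) and Egfr (0.50) were not called.

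Whether the response to loss of dystrophin differs where miR-133b is also absent was tested as the difference of the 2 log2 differences. 8 of 831 genes were called (0.963%), and 172 had an unadjusted p under 0.05. The difference, the response with miR-133b minus that without it, was positive in 7 of the 8 and negative in 1. Its sign does not say which of the responses is larger in size. The count of calls rests on the libraries: it reached 110 when miR-133b-/- 2 was left out and 15 when mdx/miR-133b-/- 1 was. The listed genes were selected on the second of the 2 differences, so this test is not independent of the selection. The clock output Dbp is among the 8 (difference between responses 2.11). Of the others, Gm14325, Gm14403 and Zfp970 were not called in mdx against Control (0.03, 0.07 and -0.41), and Gm8822 was lower in mdx (4.01-fold).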

How the data were processed

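Total RNA was extracted from whole tibialis anterior with a column kit and DNase, per the labels' protocols. Reads were processed with HISAT2, HTSeq and the GRCm38 genome, per the submitters' processing notes; the sources used here give no versions, settings or strand rule, so genes that overlap or are close copies may share reads. The deposited values are a normalised signal per gene: from the values, each library holds whole reads multiplied by 1 factor (every value whole within 0.001 read after division), and how the authors obtained the factors is not given. Only the 831 listed genes were used; all matched GENCODE M21, and 788 are protein coding.

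Groups were taken from the sample titles. limma 3.58.1 (R 4.3.3) was fitted to log2(scaled reads + 1) with 1 mean per group over all 16 libraries and a trended variance prior. Its p-values were adjusted by Benjamini-Hochberg over all 831 genes at 0.05. The same fit was first run on simulated data with independent genes and rises as likely as falls. That run does not measure false calls in these data. The share of mitochondrial reads was compared by an exact permutation test (scipy 1.17.1, Python 3.11.15), whose smallest two-sided p is 0.0286 for 4 against 4. The members and gene lists were chosen with earlier results of these data known. Genes named are the 10 largest rises and falls with a mean of at least 50 and groups that do not overlap, the called members of each list with the smallest p, the most abundant called genes, and those of the smallest p for the difference between responses; further list members are given by value. A few list members are counted but not reported here by name. The alternatives varied scaling, pseudocount (0.5 and 10), variance trend, a filter at a mean of 100, the libraries fitted, a replicate block, GC content and length, limma-voom, the grouping label and each library left out. Promoters and the microRNA come from RefSeq tables of GRCm38.p6, in which 626 listed genes had a promoter. Depth beyond the listed genes is unknown.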

Additional observations from a re-analysis of the deposited data

Results flagged for a closer look

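In a search for single libraries far from the other 3 of their group, 16 of 270 groups of 4 values passed Dixon's 95% critical value for the gap, where chance flags about 1 in 20. Control 1 was the low value in Tnni1 (2.86 scaled reads), Col3a1 (10224.5), the summed collagens and crosslinking enzymes (12133.2) and the summed junction and denervation genes (979.7). It was the high value in Ctss (127.9), Gpnmb (99.3) and Itgb2 (30.7). In mdx, replicate 2 was high in Kcnn3 (692.5) and Lcp1 (516.9), and apart from the rest in Thbs2 (272.8). Replicate 4 was low in H2-Aa (1244.4) and apart in Runx2 (120.1), replicate 3 apart in Ctsh (485.1) and in the summed amino acid genes (2076.1), and replicate 1 apart in Anxa4 (764.3) and Col3a1 (31995.9).

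By the test of the difference, the response to loss of dystrophin differed between the groups with and without miR-133b in Gm14325 (7.75 on the log2 scale), Zfp970 (5.86), Gm14403 (5.85) and Gm8822 (-4.23). For the first 3 the values of mdx against Control were 0.03, -0.41 and 0.07, none called. Those of mdx/miR-133b-/- against miR-133b-/- were -7.72, -6.27 and -5.78. The listed genes were selected on that second comparison, so the test is not independent of the selection. Strain background is not in the labels, and its part in these values was not tested.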

How the results depend on the processing

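Against 550 calls of mdx against Control, other settings that kept the 8 libraries, all genes and the title groups gave 511 to 646, the last with only those 8 libraries fitted; 403 of the 550 were among the 511 called with equal totals of listed reads and 440 among the 530 called with relative log expression factors. With a filter at a mean of 100 scaled reads the count was 390 of 625 genes, 227 of them higher. With equal totals of listed reads 33 genes were lower, and Ckm (0.0605) and Ndufs1 (0.0831) turned from lower to higher values. Grouped by the description field, 0 genes were called, 0 higher and 0 lower. Leaving out 1 library of the 8 gave 474 to 538 calls, 333 to 359 higher and 141 to 179 lower. The test of a difference between responses gave 14 calls with relative log expression factors, 4 with the filter, 5 with GC content and length removed, and 7 to 110 when 1 of the 16 libraries was left out. The mitochondrial share differed by -9.76 to -7.26 percentage points without 1 library (exact permutation test, p = 0.0571 each, which is the smallest two-sided value 3 against 4 gives). With a replicate block 541 genes were called. Of the named genes Ckm (-0.45, adjusted p = 0.0604) and Arntl (0.54, adjusted p = 0.068) lost their calls under limma, and with Arntl the 1 higher clock gene. Ighm (-1.13) was called lower. The labels do not say whether libraries of the same replicate number share a batch or litter. Deviations of same-numbered Control and mdx libraries from their group means correlated at -0.03, 0.155, -0.143 and -0.09, and a shared batch was not tested. Leaving the description grouping aside, of 1840 alternative values of 98 named genes 1788 kept direction and call, 49 lost the call, 1 gained it and 2 reversed; of 969 alternative list counts 99 moved by over 1.5 times. Of 197 called genes in the lists or named, 47 lost the call under some setting other than the description grouping, and 20 without 1 library. The planned edgeR and DESeq2 tests on recovered reads were not run, because the deposited values were taken as normalised signal. Low counts limit Mmp12, Atp6v0d2 and Itgax, whose Control values are a few reads.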

Other observations

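Several pairs of related genes, chosen after their values were seen and in all but Kcnn3 outside the lists above, moved in opposite directions in mdx. Dio2, the deiodinase that activates thyroid hormone, stood at 56.5, 89.7, 52.7 and 47.8 scaled reads in Control 1 to 4 and 239, 287, 256 and 246 in mdx 1 to 4. Thrb, a thyroid hormone receptor, stood at 454, 397, 426 and 516 in Control 1 to 4 and 285, 251, 244 and 211 in mdx 1 to 4. Neither pair of groups overlaps, and the log2 differences were 2.08 and -0.85. Me2, the mitochondrial malic enzyme, was 2.38-fold higher and Me1, the cytosolic form, 1.89-fold lower. Kcnn2, a small-conductance calcium-activated potassium channel, was lower (-1.18), whereas its relative Kcnn3 was higher (1.05).

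Among polyamine genes Smox, spermine oxidase, was lower with Amd1, at 2829.8, 980.4, 787 and 975 scaled reads in Control 1 to 4 and 495, 368, 929 and 351 in mdx 1 to 4 (-1.29). Its groups overlap, since mdx 3 lies above Control 3, and Control 1 lies far above the rest as it does in Amd1. Sat1, which acetylates spermidine and spermine for export, was not called (0.58, adjusted p = 0.0875).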
